A study of Mus musculus with 6 samples.

Results

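Autophagy delivers cytoplasm and organelles to the lysosome inside a double-membraned vesicle, the autophagosome. The 10 genes described here encode kinases that start the process (Ulk1, Ulk2), a subunit of the lipid kinase complex that marks the forming membrane (Becn1), the conjugation enzymes and their substrates (Atg5, Atg7, Atg12), the ubiquitin-like proteins that coat the vesicle (Map1lc3a, Map1lc3b, Gabarapl1) and a cargo receptor (Sqstm1). They are a set of named genes; the rule that picks their probe sets uses no difference between genotypes, but the set was drawn up with earlier results of these data known. Each was represented by the probe set with that symbol alone in the platform annotation, and by the brightest where there were several. All 10 were found among 19938 named genes, and all 10 passed the filter on dim signals that left 16487 genes for testing.

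Skeletal muscle relies on autophagy during fasting and exercise, when it supplies amino acids and clears damaged mitochondria. The kinase AMPK, which responds to a fall in cellular energy and stands in the title of the study, can phosphorylate and activate ULK1, whereas the growth kinase mTORC1 inhibits it. Much of this control acts on proteins, so that transcript levels describe the supply of components and not the rate of autophagy.

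Gastrocnemius, a calf muscle, was profiled for metabolic gene expression in wild type mice and in homozygous knockouts of Sparc, which encodes a secreted collagen-binding glycoprotein. There were 3 wild type and 3 knockout males, all 12 weeks old and all listed under the strain name B6;129S-Sparctm1Hwe/J, a mixed background of B6 and 129S. Total RNA from each was measured on 1 Affymetrix mouse gene array. The labels do not say that the wild types were littermates of the knockouts, so background alleles that travel with the genotype cannot be told apart from the loss of Sparc.

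Values are log2 of the deposited intensity, errors after group means are SDs, and errors after changes are standard errors (SE) of the limma fit. The array median intensity ranged from 40.5 to 44.7 and the filter lay at 3.90 on the log2 scale, far below every value of the 10 genes. Sparc itself read 11.80, 11.73 and 11.87 in wild type arrays 1, 2 and 3 and 6.74, 6.46 and 5.83 in knockout arrays 1, 2 and 3, far apart by genotype label. The 12 markers of muscle fibres had a summed intensity of 75846 to 77048 in wild type arrays, against 67824, 77254 and 77393 in knockout arrays 1, 2 and 3. Their mean log2 difference from the wild type mean was -0.20, -0.01 and 0.18 in the same knockout arrays. Of these 12, 5 lay wholly below the wild types and 2 wholly above (41.7% and 16.7%, against 13.8% and 11.1% of all genes). Knockout array 1, lowest in the fibre sum, had the highest sum over 14 macrophage markers, at 6458 against 3524 and 3864 in the other knockouts and 2510 to 2798 in the wild types. Its sum over 8 tendon markers was 7069, against 3778 and 2910 in knockout arrays 2 and 3 and 2593 to 3695 in the wild types. Over 7 adipocyte markers the sums were 7748 to 11043 in the knockouts and 9653 to 12632 in the wild types. All 7 had a negative log2 change, with a median of -0.48, and 0 were called. Of these 7, 1 lay wholly below the wild types (14.3%, against 13.8% of all genes). Their mean log2 difference from the wild type mean was -0.66, 0.25 and 0.40 in wild type arrays 1, 2 and 3. In knockout arrays 1, 2 and 3 it was -0.52, -0.60 and -0.75, so wild type array 1 lay among the knockouts. For 8 markers of fibro-adipogenic cells the sums were 12964 to 17460 in the knockouts and 11302 to 12533 in the wild types. All 14 macrophage markers had a positive log2 change, with a median of 0.66. Of these 14, 10 lay wholly above the wild types (71.4%, against 11.1% of all genes), and 0 were called. All 8 tendon and all 8 fibro-adipogenic markers also had a positive change, with medians of 0.27 and 0.49. In each of these 2 lists 3 markers lay wholly above (37.5%), and 0 were called. In whole muscle, a change in the share of a cell type and a change of RNA per cell cannot be told apart, and the part of these markers in the results below was not tested beyond leaving out each array.

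None of the 10 autophagy genes changed past the threshold of an adjusted p of 0.05 (limma, Benjamini-Hochberg over all 16487 genes). Over all genes tested, 0.321% were called higher and 0.673% lower in the knockouts, so 0 of 10 lies near the background. Without adjustment, 1 gene, Ulk1, was lower at p under 0.05 by limma and 0 were higher, where the background was 10.3% lower and 8.16% higher. Knockout values were entirely below the wild type values in 1 gene, Becn1, and entirely above them in 0, against 13.8% and 11.1% of all genes. The changes ran from -0.35 in Ulk1 to 0.04 in Atg5, 8 of the 10 were negative, and their median was -0.14 on the log2 scale beside 0.0001 over all genes. With 10 members that share the same 6 arrays, this median is a description and carries no test.

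**Figure D1:**
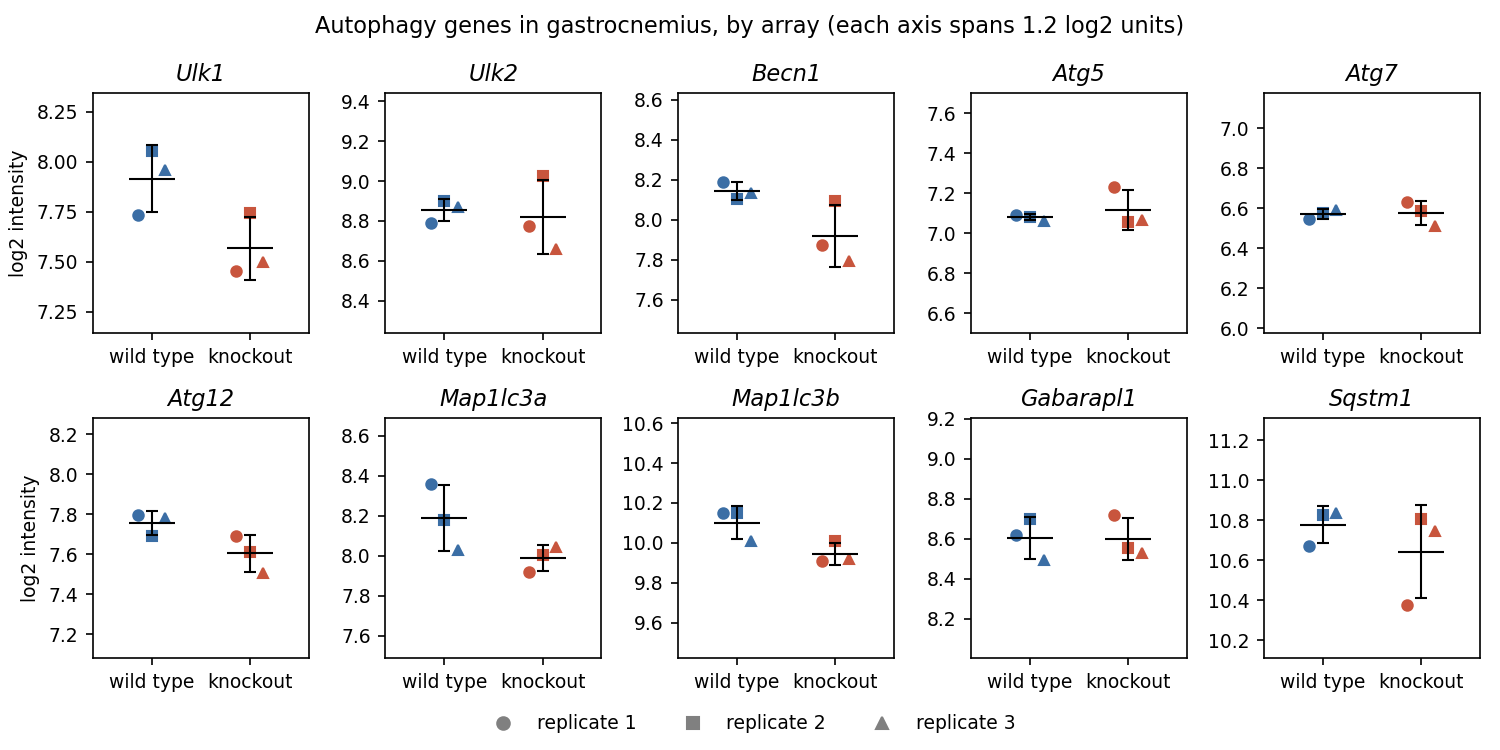
Log2 intensity of each of the 10 genes (vertical axis, spanning the same width in every panel) in 3 wild type and 3 Sparc knockout arrays. Symbols mark the replicate number, by which the main fit paired no arrays. The black line is the group mean and the bars 1 SD (n = 3). Becn1 is the one gene in which the groups do not overlap, with knockouts at 7.79 to 8.09 and wild types at 8.10 to 8.19.

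Ulk1 and Ulk2 encode related serine/threonine kinases that form the initiation complex with FIP200, ATG13 and ATG101. Ulk1 read 7.73, 8.06 and 7.96 in wild type arrays 1, 2 and 3, and 7.46, 7.75 and 7.50 in knockout arrays 1, 2 and 3. The groups overlapped by a small margin, because knockout array 2 lay just above wild type array 1. The change was -0.35 ± 0.12 (SE), or 1.27-fold lower, at an unadjusted p of 0.0198 and an adjusted p of 0.183 by limma, with a 95% interval from -0.63 to -0.07. It was -0.44 without knockout array 2 (limma adjusted p = 0.0784) and -0.28 without wild type array 2 (limma adjusted p = 0.484). Over all 16 alternative settings it stayed negative and its adjusted p lay between 0.0784 and 0.484.

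Ulk2 read 8.79, 8.90 and 8.87 in wild type and 8.78, 9.02 and 8.66 in knockout muscle. The knockout values spanned the whole wild type range, with knockout array 2 the highest and knockout array 3 the lowest of all 6. Its change was -0.03 ± 0.11 (SE; limma adjusted p = 0.915), with a 95% interval from -0.29 to 0.22.

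To ask whether the kinase genes changed unequally, the log2 ratio of the Ulk1 to the Ulk2 signal was taken within each array. Only its difference between groups is meaningful, since signals of different probe sets are not on a common scale. The ratio was -1.06, -0.85 and -0.91 in the wild types and -1.32, -1.28 and -1.16 in the knockouts. Every knockout thus lay below every wild type, and the groups differed by -0.31. The exact two-sided permutation test gave p = 0.1, the smallest that 3 arrays against 3 can give, and 0.3 after adjustment over the 3 pairs of related genes compared. This test cannot go below 0.1 with 6 arrays, so it can place no pair past a threshold of 0.05.

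**Figure D2:**
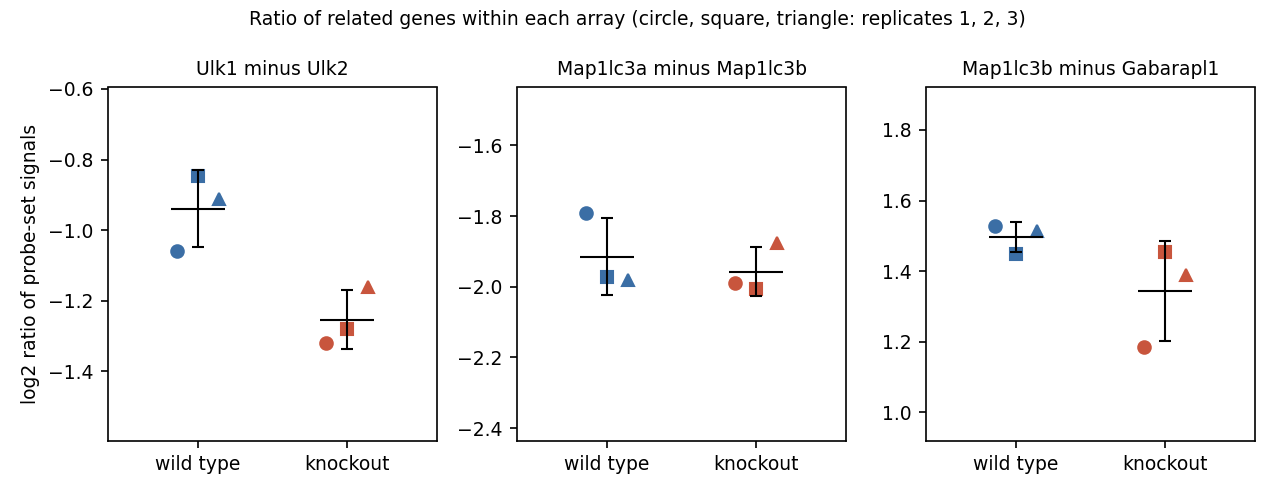
Log2 ratio of the signals of 2 related genes within each array (vertical axis, 1 log2 unit in every panel) for wild type and Sparc knockout muscle; lines are means and bars 1 SD (n = 3). The Ulk1 to Ulk2 ratio is -1.06 to -0.85 in wild types and -1.32 to -1.16 in knockouts, while the groups overlap in the other pairs.

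Becn1 encodes beclin 1, the regulatory subunit of the class III phosphatidylinositol 3-kinase complex that acts after the ULK kinases. It read 8.19, 8.10 and 8.13 in the wild types and 7.87, 8.09 and 7.79 in the knockouts. The groups did not overlap, but knockout array 2 lay only just below wild type array 2. After a quantile normalization between arrays the groups of Becn1 overlapped, with the highest knockout at 8.103 and the lowest wild type at 8.08. The change was -0.22 ± 0.10 (SE; limma adjusted p = 0.296). Without knockout array 2 it was -0.31 (limma adjusted p = 0.096), and over all 16 alternatives it lay between -0.31 and -0.16.

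The conjugation genes split into a pair with changes near 0 and Atg12 with a negative estimate. ATG7 is the E1-like enzyme that activates ATG12, and ATG12 is then joined to ATG5 to form the complex that attaches lipid to the LC3 proteins. Atg5 read 7.09, 7.08 and 7.06 in the wild types and 7.23, 7.06 and 7.06 in the knockouts, with knockout array 1 standing above the others. Its change was 0.04 ± 0.09 (SE; limma adjusted p = 0.877), and -0.02 without knockout array 1.

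Atg7 read 6.54, 6.58 and 6.59 in wild type and 6.63, 6.59 and 6.51 in knockout muscle, with the groups interleaved. The change was 0.01 ± 0.09 (SE; limma adjusted p = 0.981), and its 95% interval ran from -0.19 to 0.21. Atg12 read 7.80, 7.69 and 7.78 in the wild types and 7.69, 7.61 and 7.51 in the knockouts. Knockout arrays 2 and 3 lay below all wild types, and knockout array 1 was level with wild type array 2. The change of Atg12 was -0.15 ± 0.09 (SE; limma adjusted p = 0.433), negative in all 16 alternatives.

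Of the ubiquitin-like coat proteins, LC3A and LC3B are lipidated on the growing membrane, and the related GABARAP-like 1 is best known from later steps of closure and fusion. Map1lc3a read 8.36, 8.18 and 8.03 in the wild types and 7.92, 8.004 and 8.04 in the knockouts. The wild types varied more than the knockouts (SD 0.17 and 0.064), and wild type array 3 lay within the knockout values. The change was -0.20 ± 0.11 (SE; limma adjusted p = 0.37), and -0.11 without wild type array 1.

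Map1lc3b read 10.15, 10.15 and 10.01 in wild type arrays and 9.91, 10.01 and 9.92 in knockout arrays. Wild type array 3 and knockout array 2 were level, and the other 4 arrays were apart by genotype. The change was -0.16 ± 0.09 (SE; limma adjusted p = 0.38). A second probe set of this gene, left out by the rule because it was dimmer, had a change of -0.17 ± 0.08 (SE, from a fit over all probe sets above the filter), with wild types at 9.79 to 9.94 and knockouts at 9.67 to 9.78. With the 2 probe sets averaged, the groups no longer overlapped. Whether both measure only this gene is not recorded in the annotation.

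Gabarapl1 read 8.62, 8.70 and 8.495 in the wild types and 8.72, 8.55 and 8.53 in the knockouts, with the groups overlapping. Its change was -0.004 ± 0.10 (SE; limma adjusted p = 0.989), with a 95% interval from -0.23 to 0.22. The Map1lc3b to Gabarapl1 ratio differed between the genotypes by -0.15 (exact permutation p = 0.2, adjusted p = 0.3), with knockout array 1 the lowest at 1.19 against 1.45 to 1.53 in the wild types. Without that array the difference was -0.07. The Map1lc3a to Map1lc3b ratio differed by -0.04 (exact permutation p = 0.5, adjusted p = 0.5) and overlapped. The same lower limit of 0.1 holds for both tests, which therefore do not show that these related genes changed alike.

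Sqstm1 encodes p62, which binds ubiquitinated cargo and LC3 and is itself degraded by autophagy, so its protein and transcript need not move together. It read 10.67, 10.83 and 10.84 in the wild types and 10.38, 10.81 and 10.75 in the knockouts. Knockout array 1 alone lay below the wild type range. The change was -0.14 ± 0.12 (SE; limma adjusted p = 0.622), and -0.002 without knockout array 1, the array with the highest macrophage and tendon sums and the lowest fibre sum.

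**Figure D3:**
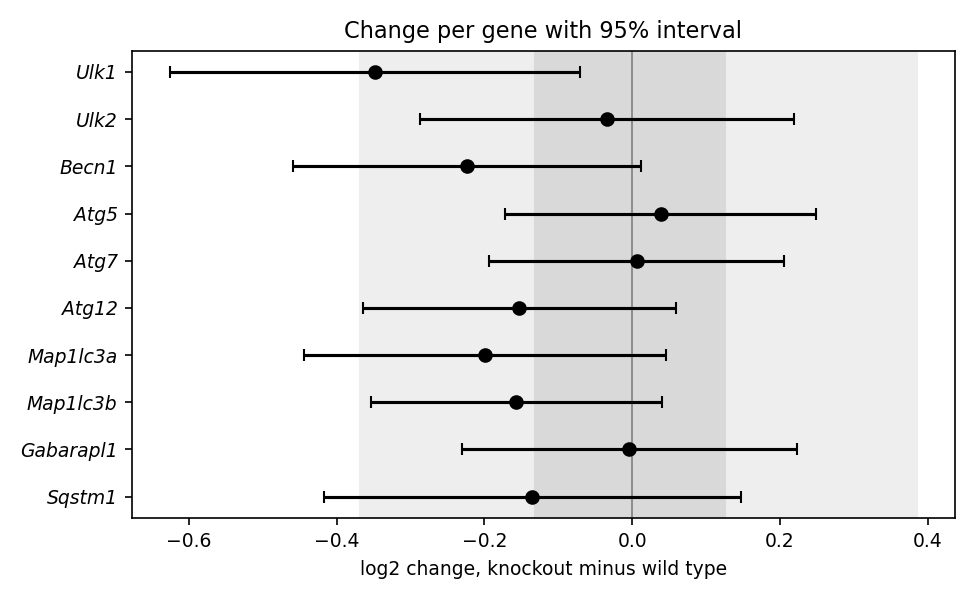
Log2 change (knockout minus wild type, horizontal axis) of each gene with its 95% interval from the limma fit on 3 against 3 arrays. The dark and light grey bands hold the middle 50% and 90% of the changes over all 16487 genes, and 9 of the 10 intervals lie inside -0.5 to 0.5, with Ulk1 reaching -0.63.

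The intervals give the precision of each change in the limma fit, taken 1 gene at a time. They do not cover the choice of processing or the background alleles that travel with the genotype. For 9 of the 10 genes the 95% interval lay inside -0.5 to 0.5 on the log2 scale. Ulk1 was the exception at its lower end, and the highest upper bound was 0.25, for Atg5. The knockout arrays differed in how many of the 10 genes fell outside the wild type range. Below that range lay 6, 4 and 6 genes in knockout arrays 1, 2 and 3, where 43.1%, 28.3% and 36.9% of all genes did. Above it lay 3, 1 and 0 genes, against 31%, 36.4% and 36.1% of all genes. The median over the 10 genes, relative to the wild type mean, was -0.14, -0.05 and -0.16 in the same arrays, beside -0.05, 0.03 and 0.003 over all genes. Knockout array 2 was thus the nearest to the wild types for these genes, and it was also nearest on the first principal component of all genes, at 2.45 against 26.5 and 19.8 for the other knockouts.

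The wider pathway was read from 90 genes in 6 lists by role, of which 89 were on the array under a single symbol and tested. None of them passed over all genes by limma either. Before adjustment, 14 were lower at p under 0.05 (15.7%) and 2 higher (2.25%), where 10.3% and 8.16% of all genes were. The knockouts lay below the wild types without overlap in 18 (20.2%) and above in 5 (5.62%), against 13.8% and 11.1% of all genes. In total 60 of 89 had a negative change, with a median of -0.06. These shares describe the lists and carry no test, because genes on the same 6 arrays are not independent.

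Among partners of the ULK complex and the ATG9-ATG2 membrane supply, 10 of 12 changes were negative. In this list 1 gene was lower at an unadjusted limma p under 0.05 (8.33%, against 10.3% of all genes). Atg9a, the lipid scramblase that seeds the membrane, read 8.45, 8.57 and 8.46 in wild type and 7.95, 8.42 and 8.07 in knockout muscle, a change of -0.34 ± 0.13 (SE; limma adjusted p = 0.203). Its groups did not overlap, and knockout array 2 was again the nearest to the wild types. Atg101, a partner of ATG13, had a change of -0.17 ± 0.09 (SE; limma adjusted p = 0.353), with no overlap.

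In the list for the class III lipid kinase complexes, 6 of 11 changes were negative. This list also holds genes that are not subunits of the complexes, among them Bcl2, Bcl2l1 and Vmp1. Pik3c3 encodes VPS34, the catalytic subunit to which beclin 1 binds. It read 7.37, 7.32 and 7.43 in the wild types and 7.05, 7.01 and 7.03 in the knockouts. All 3 knockouts were low and close together, including knockout array 2. The change of -0.34 ± 0.09 (SE) had an unadjusted p of 0.0037 and an adjusted p of 0.102 by limma. Vmp1, a membrane protein of the endoplasmic reticulum, had a change of -0.22 ± 0.10 (SE; limma adjusted p = 0.298).

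The conjugation list had 8 negative changes of 10. Gabarapl2, another coat protein, read 8.84, 8.67 and 8.63 in the wild types and 8.53, 8.42 and 8.38 in the knockouts, without overlap, and changed by -0.27 ± 0.10 (SE; limma adjusted p = 0.1868). Atg4d, a protease that processes the coat proteins, had a change of -0.28 ± 0.10 (SE; limma adjusted p = 0.203). In the receptor list, where 8 of 13 were negative, Bnip3l, a mitochondrial receptor, had a change of -0.41 ± 0.14 (SE; limma adjusted p = 0.165). Wdfy3, a large scaffold for aggregate clearance, had one of 0.22 ± 0.09 (SE; limma adjusted p = 0.26), with all 3 knockouts above the wild types.

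Fusion genes had 10 negative changes of 16. The smallest p-values belonged to the SNARE genes Stx17 and Snap29, whose proteins join the autophagosome to the lysosome, at -0.30 ± 0.12 and -0.30 ± 0.12 (SE; limma adjusted p = 0.232 and 0.236). Both had knockout array 3 as the lowest array, at 7.53 and 7.54 on the log2 scale.

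Upstream control held the 2 smallest p-values of the wider lists. Of 27 genes, 18 had a negative change. Before adjustment 7 of these had a limma p under 0.05, as did 1 gene with a positive change. Those are 25.9% lower and 3.7% higher, against 10.3% and 8.16% of all genes. In the other wider lists 7.69% to 20% were lower and 0% to 7.69% higher. Tsc1 and Tsc2 encode the complex that restrains mTORC1. Tsc1 read 7.74, 7.75 and 7.70 in the wild types and 7.17, 7.37 and 7.37 in the knockouts, a change of -0.43 ± 0.10 (SE; limma adjusted p = 0.0784). Tsc2 read 8.62, 8.60 and 8.61 in the wild types and 7.97, 8.36 and 8.16 in the knockouts, a change of -0.45 ± 0.11 (SE; limma adjusted p = 0.102). In both genes the knockouts lay well below a narrow wild type range, with knockout array 1 the lowest.

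Leaving out knockout array 2 altered the counts for the wider pathway, whereas leaving out any other single array gave 0 calls there. Without knockout array 2, 594 of all 16487 genes were called lower and 423 higher, or 6.17% in either direction. Of the 89 pathway genes, 6 then passed by limma, all of them lower. They were Atg9a, Bnip3l, Tsc1 and Tsc2 together with Flcn, a regulator of AMPK and mTORC1, and Prkab2, an AMPK beta subunit, both named after their values were seen. Their changes then ran from -0.70 in Prkab2 to -0.46 in Tsc1, and their adjusted p-values from 0.0148 to 0.0452. The 10 autophagy genes still gave 0 calls without that array. At an unadjusted p of 0.05 by limma there were 2, Ulk1 and Becn1, both lower. In the same fit 22.5% of all genes had an unadjusted limma p under 0.05, counting both directions. The share of all genes that were lower was not computed for this fit, so no matched background is given.

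**Figure D4:**
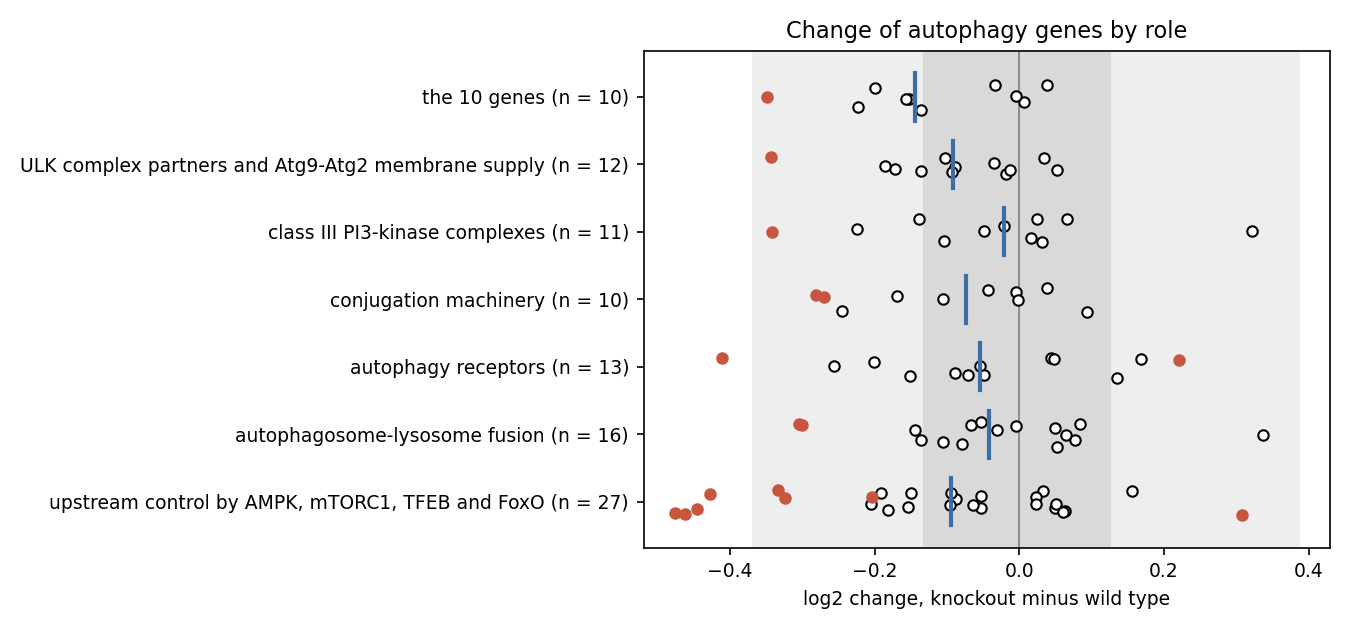
Log2 change (knockout minus wild type, horizontal axis) of the 10 genes and of the 6 wider lists. Each point is a gene, filled where the unadjusted limma p is under 0.05, and blue ticks are list medians. The dark and light grey bands hold the middle 50% and 90% of all 16487 genes. List medians run from -0.14 in the 10 genes to -0.02 in the class III kinase list.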

How the data were processed

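Each array gave 1 column of deposited intensities, on a linear scale. The submitters' processing notes name RMA and Affymetrix Expression Console (version 1.3.0.187) as the authors' tools. RMA corrects background, normalizes between arrays and summarises probes, and it can understate changes of dim genes. No detection calls came with the values, and for the genome build the sources used here state nothing. The number of arrays limits the precision. Each limma p-value sets a change against the spread between these arrays, with the variance moderated by that of all genes.

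The design had assumed log2 values, so log2 was taken with no offset. Platform symbols, which can be old, named 21789 probe sets singly, while 1621 had several symbols and 12146 were unnamed. Genes below the 25th percentile of all probe sets were left out. The genotype test was limma's (version 3.58.1, R 4.3.3), using lmFit and eBayes with a trend in the variance, two-sided p-values and Benjamini-Hochberg adjustment. Ratios of related genes were compared by exact permutation over arrays.

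The named genes were the 10 members and, in each wider list, any past the threshold plus the 2 with the smallest p. The members and lists were chosen with earlier results of these data known. Alternatives changed the dim filter (none, or the 50th percentile), scaling, offset (16), probe-set rule, variance model, weights and block, and left out each array.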

Additional observations from a re-analysis of the deposited data

How the results depend on the processing

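The count of 0 calls among the 10 autophagy genes was the same under all 16 alternatives. Ulk1, Becn1, Atg12, Map1lc3a, Map1lc3b and Sqstm1 kept a negative change in every one, whereas Atg5, Atg7, Ulk2 and Gabarapl1, all near 0, took either sign. The median of the 10 ranged from -0.18 to -0.10.

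Over all genes, 164 were called. The count was 103 after centring each array on its median and 329 with array weights, and 27 to 1017 with 1 array left out (32, 30 and 27 without wild type arrays 1, 2 and 3, and 1017 without knockout array 2). Non-overlapping members numbered 4 after median centring (25.6% of all genes), 2 with averaged probe sets (25%), and 2 to 4 with 1 array left out, where 31.1% to 41.4% of all genes did not overlap. Members at an unadjusted p of 0.05 then numbered 0 to 2 (0 when wild type array 2, wild type array 3 or knockout array 1 was left out), beside 12.1% to 22.5% of all genes. All of the members counted here were lower in the knockouts, while the shares of all genes count both directions. Wider pathway calls numbered 0 to 6.

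Signs turned as follows. Median centring gave -0.0023 for Atg5 and -0.0346 for Atg7. Quantile normalization gave 0.0103 for Ulk2, -0.0044 for Atg7 and 0.0286 for Gabarapl1. Array weights gave 0 for Ulk2 and -0.0065 for Atg7. With 1 array left out the ranges were -0.0193 to 0.0691 for Atg5, -0.0216 to 0.038 for Atg7, -0.0642 to 0.0442 for Gabarapl1, -0.1362 to 0.0457 for Ulk2, and -0.083 to 0.0196 for the difference between Map1lc3a and Map1lc3b. The cause was not tested.

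Deviations from the group means had correlations of 0.01, 0.08 and -0.02 between same-numbered arrays. Between arrays of unlike number they ran from -0.06 to 0.05. With 3 arrays per group these values cannot exclude a pairing, and the main fit used none. With the replicate block 123 genes were called, 0 of them members, and Ulk1 had an adjusted p of 0.168 by limma.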
